A study of Mus musculus with 6 samples.

Results

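Oxidative phosphorylation genes were followed in newborn mouse ovary that lacks both Sohlh1 and Sohlh2. The genes were taken by name from the platform annotation: every symbol that starts with Nduf, Uqcr or Atp5, the symbols Sdha to Sdhd, and every symbol that starts with Cox followed by a number from 4 to 8. This gave 87 genes of 19057 with a single symbol, and 135 probes of the 45281 on each array. The double-knockout group (4 arrays, numbered 1, 2, 3 and 5 in the titles) lacks Sohlh1 and Sohlh2, a pair of germ-line transcription factors with a basic helix-loop-helix domain, and the wildtype group (2 arrays, numbered 2 and 3) does not. Both groups are newborn ovary on a C57BL/6/129S6/SvEv background. Total RNA was measured on Illumina MouseWG-6 BeadChips, and whether each array holds a separate animal, litter or pool is not stated, so a p-value here reflects the spread among these arrays alone, which may be technical.

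Oxidative phosphorylation is the set of reactions at the inner mitochondrial membrane that turns the energy of NADH and succinate into ATP. Complex I oxidises NADH, complex II oxidises succinate, complex III passes electrons to cytochrome c, complex IV passes them to oxygen, and complex V uses the resulting proton gradient to make ATP. Most subunits are encoded in the nucleus and are needed in nearly every cell, while a few complex IV subunits exist as a general isoform and an isoform made mainly in heart and skeletal muscle, lung or testis. Oocytes are rich in mitochondria, and an ovary at birth is a mixture of oocytes, pregranulosa cells, stroma, vessels and blood. In RNA from such a mixture, fewer cells of a type and less RNA per cell cannot be told apart.

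The complex IV isoforms Cox7a1, which passed the test, Cox7a2, its general partner, which did not, and Cox6a1, another general subunit that did not, are shown by their 250 bases before the transcription start (RefSeq, GRCm38.p6, 5′ to 3′ in the direction of the gene). The intervals are chr7:30183921-30184170 on the plus strand for Cox7a1, chr9:79759854-79760103 on the minus strand for Cox7a2 and chr5:115348959-115349208 on the minus strand for Cox6a1, and all lie upstream of the annotated start. Capitals mark matches, on either strand, to short motifs of factors known to act on nuclear genes of the respiratory chain: GCATGCG for NRF1, CCGGAA for GABPA, AAGATGG for YY1 and AAGGTCA for ESRRA, and to CACGTG, a site of basic helix-loop-helix proteins, and TATAAA, the TATA box.
Cox7a1: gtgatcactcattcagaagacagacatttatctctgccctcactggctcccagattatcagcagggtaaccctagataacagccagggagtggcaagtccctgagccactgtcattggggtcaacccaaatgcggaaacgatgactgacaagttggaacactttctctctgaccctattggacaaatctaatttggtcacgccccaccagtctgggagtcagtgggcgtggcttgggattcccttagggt
Cox7a2: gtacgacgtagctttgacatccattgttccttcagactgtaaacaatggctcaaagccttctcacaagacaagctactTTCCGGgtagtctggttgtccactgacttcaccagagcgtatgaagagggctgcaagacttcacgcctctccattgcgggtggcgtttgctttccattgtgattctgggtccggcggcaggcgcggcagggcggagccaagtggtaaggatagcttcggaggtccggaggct
Cox6a1: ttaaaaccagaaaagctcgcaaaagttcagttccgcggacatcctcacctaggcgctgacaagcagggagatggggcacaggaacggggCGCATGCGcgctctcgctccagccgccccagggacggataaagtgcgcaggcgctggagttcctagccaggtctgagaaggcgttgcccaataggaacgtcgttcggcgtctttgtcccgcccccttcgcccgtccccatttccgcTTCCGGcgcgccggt
The Cox7a1 stretch held none of these 6 motifs. Cox7a2 held a GABPA match that begins 172 bases before the start. Cox6a1 held a GABPA match 15 bases before the start and overlapping NRF1 matches on both strands, which begin 161 and 160 bases before it. It was not chosen by the rule for named genes. Of the 8 complex IV subunits with a promoter, Cox6a1 is the only 1 with the NRF1 motif, and 3 had the GABPA motif. Cox4i2, the other gene that passed, had no promoter sequence in the source used. Among the 59 tested subunits with a RefSeq promoter (of 71), the GABPA motif was in 20 (33.9%, against 22.5% of 9777 promoters of all tested genes) and the NRF1 motif in 9 (15.3%, against 5.74%). CACGTG was in 5 of them (8.47%, against 9.61%), YY1 in 1 (1.69%, against 5.13%), ESRRA in 3 (5.08%, against 3.63%) and TATAAA in 5 (8.47%, against 8.64%). A match is a description of letters and not of binding.

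The arrays detected 20124 to 20331 probes in the double knockout and 20459 to 20594 in wildtype. The targeted gene Sohlh1 had log2 levels of 9.68, 9.40, 9.74 and 9.81 on double-knockout arrays 1, 2, 3 and 5, against 12.89 and 13.01 on wildtype arrays 2 and 3. The only Sohlh2 probe was detected on 0 of 4 double-knockout arrays and 1 of 2 wildtype arrays. The position of either probe against the deletion is not given, so these levels are a limited check of the labels. Among the germ cell markers, 4 of 7 tested were lower in the double knockout (Kit, Gdf9, Dppa3 and Figla), against 4.09% of all genes. Ddx4 (-0.40), Dazl (-0.27) and Nobox (-0.40), as log2 changes, did not pass, and their groups overlapped. The 7 had a summed level of 4554 to 8055 on double-knockout arrays and 16512 to 19750 on wildtype arrays, in units of background-corrected intensity. That sum is mostly Dppa3 and Kit, with mean log2 levels of 11.36 and 10.14 in the double knockout and 12.81 and 12.45 in wildtype. Of the pregranulosa markers, 1 of 7 tested was higher in the double knockout (Amhr2), against 5.35% of all genes. They summed to 6252 to 6981 on double-knockout arrays and 3815 to 5405 on wildtype arrays. That sum is mostly Amhr2 itself, with a mean log2 level of 12.15 in the double knockout and 11.51 in wildtype. Foxl2, a defining pregranulosa factor, was detected on only 2 of 4 double-knockout and 1 of 2 wildtype arrays.

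The comparison asked how far the subunits of each complex differ between double-knockout and wildtype ovary. Most did not pass the test, and 64 of the 80 tested had a log2 change within 0.25 of 0, against 6630 of all 12163 genes tested. Cox6a2 (1.03) and Atp5k (-1.03) had large measured changes that did not pass. Of the 87 genes, 80 had a probe that was detected on at least 2 of the 6 arrays and were tested. Cox7a1, the muscle isoform of a complex IV subunit, was higher in the double knockout, Cox4i2, the lung isoform of another, was lower, and 78 did not pass an adjusted p of 0.05 (limma with Benjamini-Hochberg adjustment over all genes). These 2 genes are 2.5% of the members, while 9.44% of the 12163 genes tested passed, 4.09% lower and 5.35% higher. At an unadjusted p under 0.05 there were 10 members of 80, against 26.4% of all genes. The 95% interval of the change lay within 1.5-fold in either direction for 62 members (77.5%), against 44.8% of all genes, with a median standard error of 0.15 for members and 0.17 for all genes on the log2 scale. Members were also brighter, with a median log2 level of 11.5 against 7.67, and these shares are not matched for level.

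**Figure D1:**
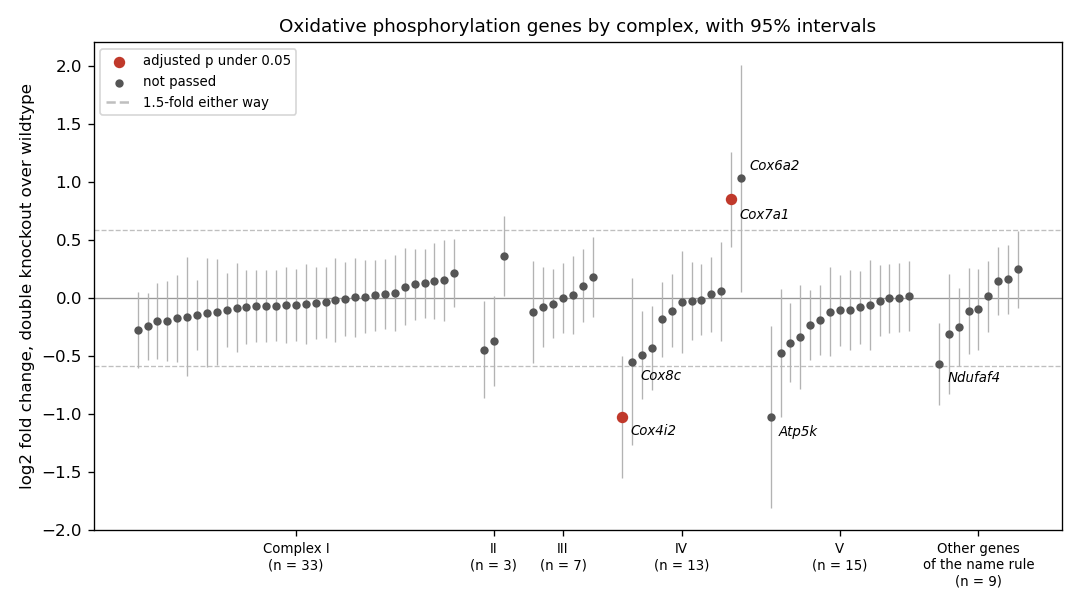
Each point is the log2 fold change of 1 tested gene (double knockout over wildtype, vertical axis), sorted within its complex, with its 95% interval from limma (n = 4 and 2 arrays). Cox4i2 and Cox7a1 in complex IV are the only genes past an adjusted p of 0.05, the 33 complex I subunits (Ndufa4 counted among them by name) lie between -0.27 and 0.21, and the dashed lines mark 1.5-fold.

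The 71 tested subunits had a median log2 fold change of -0.06, against 0.03 for all genes tested, and 49 of the 71 (69.0%) had a negative change, against 46.9% of all genes. On each array the median deviation of the 71 subunits from their own means over the 6 arrays was -0.015, -0.015, -0.043 and -0.037 in double-knockout arrays 1, 2, 3 and 5, and 0.054 and 0.038 in wildtype arrays 2 and 3. All 4 double-knockout arrays lay below both wildtype arrays, and no test of this shift was made. The same median over all genes tested was 0.009, 0.014, -0.0003 and 0.004 in the double-knockout arrays. In the wildtype arrays it was -0.025 and -0.020, so the groups did not overlap for all genes either, in the opposite direction. Groups of arrays did not overlap for 21 of the 80 members, 14 of them lower and 7 higher, against 38.1% of all genes (16.4% lower and 21.7% higher).

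**Figure D2:**
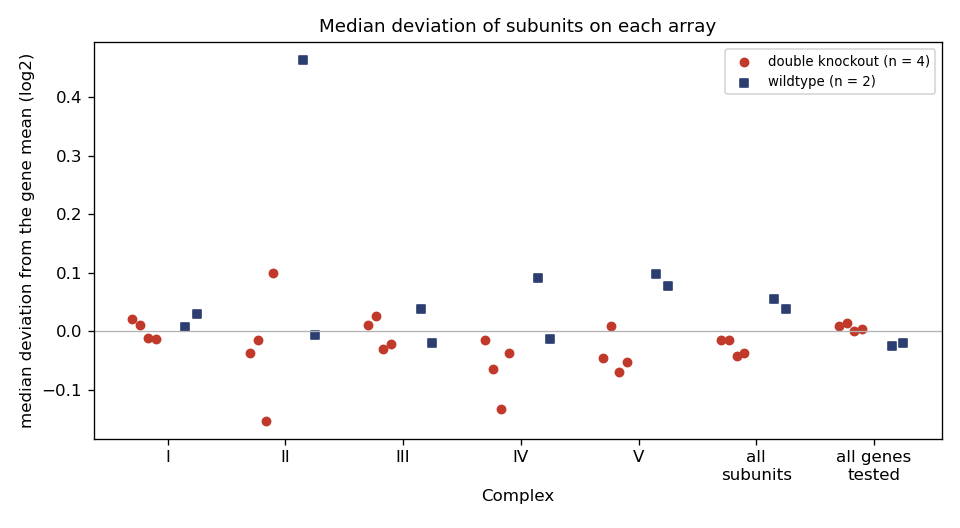
Each symbol is 1 array: the median, over the tested subunits of a complex, of the deviation of the log2 level from the gene's mean over 6 arrays. The 4 double-knockout arrays lie below both wildtype arrays for complex V, for all 71 subunits and, by a small margin, for complex IV (-0.015 on double-knockout array 1 and -0.012 on wildtype array 3), and complex II reaches 0.46 on wildtype array 2. For all genes tested, the double-knockout arrays lie above both wildtype arrays.

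Complex I, the NADH dehydrogenase, was represented by 33 tested subunits, and 0 of them passed in either direction by limma, or at an unadjusted p under 0.05. Their median was -0.06, with 22 negative, and 30 had an interval within 1.5-fold. These counts follow gene names and include Ndufa4, which is now placed with complex IV. The 30 include Ndufb2 and Ndufb11, whose probes were dim (mean log2 levels of 4.98 and 5.46). Ndufs1, an iron-sulfur core subunit, and Ndufb4, an accessory subunit, were not tested, since their probes were detected on 0 and 1 of 6 arrays.

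The 5 tested core subunits, most of which hold a flavin or iron-sulfur centre, ran from -0.24 to 0.15. Ndufs3, a core subunit of the quinone-reducing arm, had log2 levels of 10.76, 10.77, 10.68 and 10.71 in double-knockout arrays 1, 2, 3 and 5, against 10.96 and 10.99 in wildtype arrays 2 and 3. All 4 double-knockout arrays were lower than both wildtype arrays, by -0.24 ± 0.13 (SE, n = 4 and 2; limma adjusted p = 0.264). Ndufv1, the NADH-binding flavoprotein, had 12.61, 12.72, 12.95 and 12.97 in double-knockout arrays, against 12.64 and 12.68 in wildtype arrays. The groups overlapped, and its change was 0.15 ± 0.15 (SE), with a 95% interval of -0.20 to 0.50.

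Of the 27 supernumerary subunits, which surround the core and help it assemble, 19 had a negative change. Ndufb5, a subunit of the membrane arm, had 6.71, 6.81, 6.51 and 6.80 in double-knockout arrays, against 7.02 and 6.94 in wildtype arrays, a change of -0.27 ± 0.15 (SE, adjusted p = 0.269) with no overlap. Ndufa8, an accessory subunit, went the other way, with 12.28, 12.21, 12.21 and 12.16 in double-knockout arrays, against 11.94 and 12.06 in wildtype (0.21 ± 0.13 SE, adjusted p = 0.339). Ndufa1, an X-linked subunit, gave -0.20 ± 0.14 (SE) and Ndufs6, a zinc-binding subunit, -0.02 ± 0.16 (SE). Ndufa4, which carries a complex I name but is now placed with complex IV, gave 0.12 ± 0.13 (SE). A pseudogene entry, Ndufs5-ps, gave 0.14 ± 0.13 (SE), and its probe may also read the parent gene.

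The assembly factors of complex I, which build the enzyme and are no part of it, were 7 tested genes, and 0 passed by limma (1 at an unadjusted p under 0.05). Ndufaf4, an early-acting assembly factor, lay just outside the threshold. Its log2 levels were 10.61, 10.47, 10.62 and 10.79 in double-knockout arrays 1, 2, 3 and 5, against 11.34 and 11.04 in wildtype arrays 2 and 3. Every double-knockout array was lower than both wildtype arrays, by -0.57 ± 0.16 (SE, adjusted p = 0.0531, 1.48-fold). It passed under 7 of 17 alternative settings, with adjusted p from 0.0233 to 0.473 over all 17. A second, dimmer Ndufaf4 probe gave a change of 0.21 (unadjusted p = 0.238), so the probes of this gene disagreed in sign. The other factors were Ndufaf8 (-0.31 ± 0.23 SE), Ndufaf2 (-0.25 ± 0.15), Ndufaf7 (-0.10 ± 0.15), Ndufaf1 (0.01 ± 0.13), Ndufaf5 (0.16 ± 0.13) and Ndufaf3 (0.25 ± 0.15), and Ndufaf6 was detected on 0 arrays.

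Complex II, succinate dehydrogenase, also works in the tricarboxylic acid cycle. Its flavoprotein Sdha was detected on 0 of 6 arrays and was not tested. The 3 other subunits moved in different directions without passing by limma. Of these, 2 had an unadjusted p under 0.05 (Sdhc and Sdhd), against 26.4% of all genes. The groups did not overlap for each of the 3, against 38.1% of all genes. Sdhb, the iron-sulfur subunit, had 9.97, 9.96, 9.85 and 9.74 in double-knockout arrays 1, 2, 3 and 5, against 10.50 and 9.996 in wildtype arrays 2 and 3 (-0.37 ± 0.17 SE, adjusted p = 0.211). The double-knockout arrays were all lower, but the wildtype arrays differed from each other by more than the highest double-knockout array differed from the nearer one. A second Sdhb probe gave -0.19.

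Sdhc, a membrane anchor, had 12.39, 12.24, 12.41 and 12.47 in double-knockout arrays, against 11.85 and 12.18 in wildtype arrays, higher on every array (0.36 ± 0.15 SE, adjusted p = 0.167). Sdhd, the other membrane anchor, had 4.62, 5.01, 4.74 and 5.12 in double-knockout arrays, against 5.48 and 5.15 in wildtype arrays (-0.45 ± 0.19 SE, adjusted p = 0.163). The Sdhd probe was near background and was detected on only 2 of 4 double-knockout arrays. None of the 3 had an interval within 1.5-fold, so changes of that size were not bounded for complex II.

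Complex III, the cytochrome bc1 complex, had the narrowest range of changes of the complexes. All 7 tested subunits had changes between -0.12 and 0.18 and intervals within 1.5-fold, 0 passed by limma or at an unadjusted p under 0.05, and the groups overlapped for each of them. Uqcrc1, a core subunit, had 11.78, 11.78, 11.70 and 11.88 in double-knockout arrays, against 11.58 and 11.77 in wildtype arrays (0.11 ± 0.14 SE). Uqcrc2, the other core subunit, gave 0.02 ± 0.15 (SE). Uqcrq, a small accessory subunit, gave 0.18 ± 0.15, Uqcrh, the hinge protein, -0.08 ± 0.15, and Uqcr10 -0.05 ± 0.13. Uqcrfs1, the Rieske iron-sulfur protein, gave -0.12 ± 0.19, but its probe was detected on only 1 of 4 double-knockout arrays and both wildtype arrays, so it carries little information.

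Complex IV, cytochrome c oxidase, held both genes that passed, and both are tissue isoforms. Of its 13 tested subunits, which leave out Ndufa4, 1 rose, 1 fell and 11 did not pass (median -0.03), and 5 had an unadjusted p under 0.05. The shares were 15.4% passed and 38.5% at the unadjusted p, against 9.44% and 26.4% of all genes. This difference was not tested.

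Cox7a1, the heart and skeletal muscle isoform of subunit VIIa, had log2 levels of 9.40, 9.01, 8.88 and 8.96 in double-knockout arrays 1, 2, 3 and 5, against 8.09 and 8.34 in wildtype arrays 2 and 3. Every double-knockout array was higher than both wildtype arrays. It rose by 0.85 ± 0.18 on the log2 scale (SE, n = 4 and 2, adjusted p = 0.0220), which is 1.80-fold, with means of 9.06 ± 0.23 in the double knockout and 8.21 ± 0.18 in wildtype (SD). The call was lost without wildtype array 2 (adjusted p = 0.211) and without wildtype array 3 (0.0740).

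Cox7a2, its general partner, had 6.11, 6.28, 6.13 and 6.31 in double-knockout arrays, against 6.94 and 6.46 in wildtype arrays. It was lower on every double-knockout array, by -0.49 ± 0.17 (SE, adjusted p = 0.101), but did not pass. Its probe was dim, with a mean log2 level of 6.37, and members under a level of 8 had a median change of -0.25. Only the difference of a log ratio between groups can be read, since levels of different probes are not comparable. The log ratio of Cox7a1 to Cox7a2 was 3.29, 2.74, 2.74 and 2.64 in double-knockout arrays 1, 2, 3 and 5, and 1.15 and 1.88 in wildtype arrays. The ratio was higher by 1.34 in the double knockout with no overlap (two-sided exact permutation p = 0.0667, the smallest that 4 against 2 arrays can give, and 0.133 adjusted over 4 isoform pairs).

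Cox4i2, the lung isoform of subunit IV, which responds to low oxygen, had 6.13, 6.54, 6.15 and 6.16 in double-knockout arrays 1, 2, 3 and 5, against 7.67 and 6.86 in wildtype arrays 2 and 3. All 4 double-knockout arrays were lower than both wildtype arrays, and the wildtype arrays differed widely from each other. It fell by 1.02 ± 0.23 on the log2 scale (SE, adjusted p = 0.0283), 2.03-fold, with means of 6.24 ± 0.20 in the double knockout and 7.26 ± 0.58 in wildtype (SD). Without wildtype array 2 the change was -0.61 (adjusted p = 0.256), and the call was also lost without double-knockout array 1 (0.0712), without double-knockout array 3 (0.0514) and with no filter on dim probes (0.0680). Cox4i1, the general isoform, had 12.79, 13.03, 12.98 and 13.09 in double-knockout arrays, against 12.93 and 12.95 in wildtype, a change of 0.03 ± 0.14 with a 95% interval of -0.29 to 0.35. The log ratio of Cox4i2 to Cox4i1 was lower by a difference of -1.05 (two-sided exact permutation p = 0.0667, adjusted 0.133).

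Cox6a2, the muscle isoform of subunit VIa, had 6.03, 5.21, 6.13 and 7.17 in double-knockout arrays 1, 2, 3 and 5, against 5.33 and 4.88 in wildtype arrays 2 and 3. Array 5 was the highest and array 2 lay within the wildtype range, so the groups overlapped (1.03 ± 0.43 SE, adjusted p = 0.168). Cox6a1, the general isoform, gave -0.18 ± 0.14 (SE). Cox8b, another muscle isoform, was measured near background and gave 0.06 ± 0.19 (SE), with a 95% interval of -0.37 to 0.48.

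The testis isoforms did not pass either. Cox8c had 7.53, 7.22, 7.23 and 8.40 in double-knockout arrays 1, 2, 3 and 5, against 8.36 and 7.93 in wildtype (-0.55 ± 0.32 SE, adjusted p = 0.310), and the highest value of all was on double-knockout array 5. Without that array its change was -0.82 (adjusted p = 0.0327). Cox6b2 gave -0.03 ± 0.19 (SE), its log ratio to Cox6b1 differed by -0.01 (two-sided exact permutation p = 1), and Cox7b2 was detected on 0 arrays.

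Among the 7 general subunits of complex IV, 6 had a negative change and 0 passed by limma (2 at an unadjusted p under 0.05, Cox7a2 and Cox6c). Cox6c, a small membrane subunit, had 10.54, 10.29, 10.28 and 10.26 in double-knockout arrays, against 10.95 and 10.60 in wildtype arrays, without overlap (-0.43 ± 0.16 SE, adjusted p = 0.121). Cox5b, a zinc-binding subunit on the matrix side, gave -0.01 ± 0.13. Cox7a2l, which helps complexes III and IV join, gave -0.12 ± 0.16, and Cox7b was detected on 1 array and not tested. Cox6c and Cox7a2 were named after their values were seen.

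**Figure D3:**
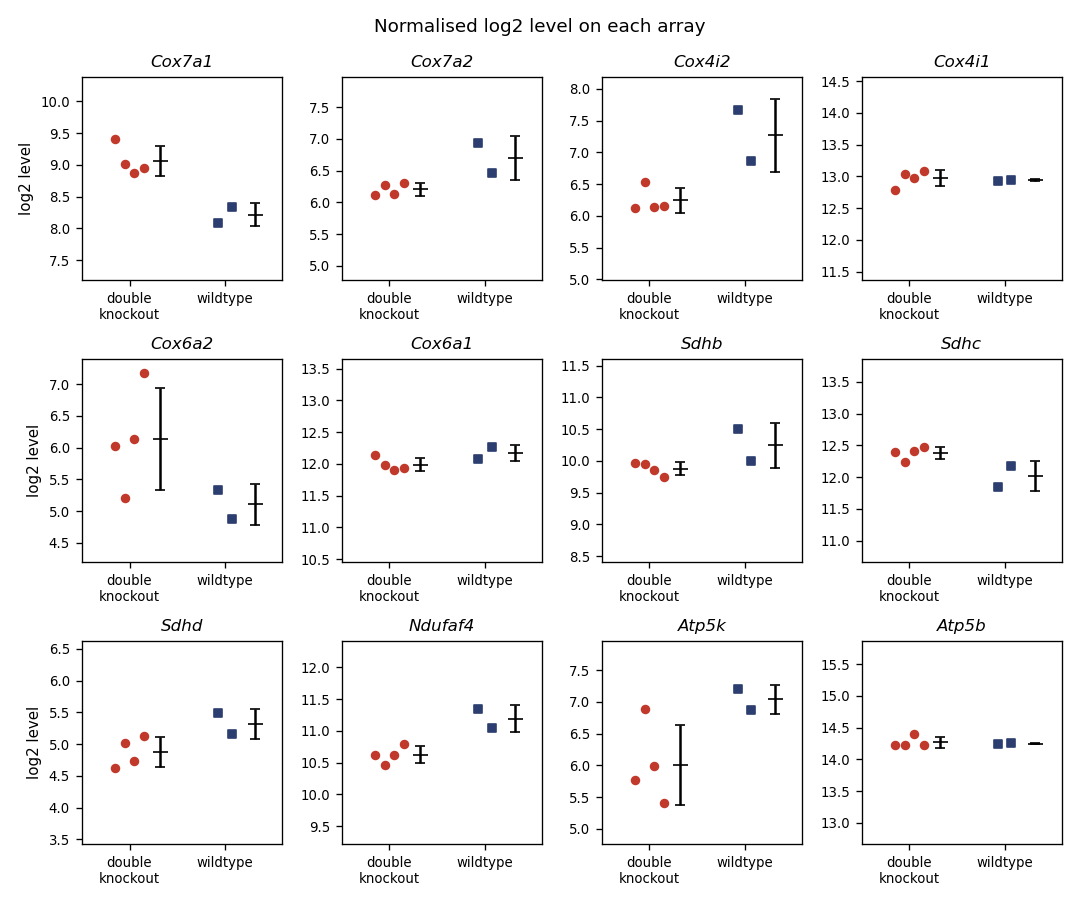
Normalised log2 level of 12 genes on each array (double knockout, n = 4, left; wildtype, n = 2, right), with the mean and SD beside each group. Every panel spans the same log2 range. Cox7a1 is higher and Cox4i2 lower on all 4 double-knockout arrays, while Cox4i1 and Atp5b lie level in both groups.

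Markers of other cell types an ovary sample could hold were read beside these isoforms. Over all genes tested, 4.09% passed lower and 5.35% higher. Of 10 skeletal and heart muscle markers listed, 7 were tested and 2 were higher in the double knockout: Myl1, a myosin light chain (1.24, adjusted p = 0.0312), and Actn2, a sarcomeric actinin (0.83, adjusted p = 0.0111). Of the 7, 4 changes were positive and 3 negative (Acta1 -0.58, Tnni2 -0.31 and Tnnt3 -0.11), with a median of 0.17. The summed level of the 7 was 627 to 1141 on double-knockout arrays and 576 to 665 on wildtype arrays, a range that overlaps. The muscle creatine kinase Ckm and myoglobin Mb were detected on 0 arrays, and Acta1, skeletal actin, on 2 of 4 double-knockout and 1 of 2 wildtype arrays. Of 9 brown adipocyte markers, 4 were tested and 1 was higher (Pparg, 0.76, adjusted p = 0.0476), with sums of 180 to 252 on double-knockout arrays and 137 to 144 on wildtype arrays. These sums are mostly Pparg and Ppargc1a (0.85), which did not pass. Ucp1, the defining uncoupling protein (0.20), was detected on 3 of 4 double-knockout and 1 of 2 wildtype arrays. Cidea (-0.04) was detected on 1 of 4 and 1 of 2, and Adipoq, Fabp4 and Elovl3 on 0.

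Of 11 pericyte and smooth muscle markers, a list chosen after the Cox4i2 values were seen, 10 were tested, 1 was higher (Higd1b, 0.95, adjusted p = 0.00575) and 0 were lower, with sums of 14106 to 19242 on double-knockout arrays and 19112 to 21086 on wildtype arrays. Of the 10, 8 changes were positive and 2 negative, with a median of 0.16. The negative ones were Des, the muscle filament desmin (-0.89, adjusted p = 0.0642, all 4 double-knockout arrays lower than both wildtype arrays), and Acta2, smooth muscle actin (-0.31, adjusted p = 0.285, groups overlapping). The summed level of this list is mostly Acta2, with a mean log2 level of 13.81 in the double knockout and 14.12 in wildtype. Of 8 erythroid markers, 5 were tested and 1 rose, Alas2, the erythroid enzyme of haem synthesis (1.35, adjusted p = 0.0352). All 5 changes were positive, against 6459 of all 12163 genes tested, with a median of 1.35. For 4 of them every double-knockout array lay above both wildtype arrays, against 21.7% of all genes. Of the 2 wildtype arrays, Klf1 was detected on 1 and Ermap on 0. The red cell anion exchanger Slc4a1 gave 3.72 (adjusted p = 0.0555), the erythroid factor Klf1 1.54 (0.169), Ermap 1.25 (0.234) and the globin Hba-a1 0.09 (0.725). The erythroid sums were 26120 to 30472 on double-knockout arrays and 23595 to 25345 on wildtype arrays. They are mostly Hba-a1, with a mean log2 level of 14.64 in the double knockout and 14.55 in wildtype. The part of any of these cell types in the values of Cox7a1, Cox6a2 and Cox4i2 was not tested, nor that of the lower germ cell markers.

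Complex V, the ATP synthase, had 15 tested subunits, of which 0 passed by limma (2 at an unadjusted p under 0.05). It had the most uniform sign: 13 of 15 changes were negative, with a median of -0.11 against 0.03 for all genes. The median deviation of its subunits was -0.045, 0.009, -0.070 and -0.052 in double-knockout arrays 1, 2, 3 and 5, and 0.098 and 0.077 in wildtype arrays 2 and 3. The groups did not overlap on this summary, nor, in the opposite direction, did they for all genes tested. Of the 15 subunits, 11 had an interval within 1.5-fold.

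The F1 head makes the ATP. Atp5b, its catalytic beta subunit, had 14.23, 14.22, 14.39 and 14.22 in double-knockout arrays, against 14.24 and 14.26 in wildtype arrays (0.02 ± 0.13 SE, 95% interval -0.28 to 0.32). The alpha subunit Atp5a1 had 6.25, 6.96, 6.14 and 6.79 in double-knockout arrays, against 7.14 and 6.88 in wildtype (-0.47 ± 0.24 SE, adjusted p = 0.254), and its second probe gave -0.26. Atp5e, the epsilon subunit, gave -0.33 ± 0.20 (SE) on a dim probe that was detected on 3 of 4 double-knockout arrays.

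Of the stalk and membrane subunits, Atp5k, subunit e of the membrane part, had the largest measured change. It had 5.76, 6.89, 5.99 and 5.41 in double-knockout arrays 1, 2, 3 and 5, against 7.20 and 6.88 in wildtype arrays 2 and 3. Array 2 lay at the lower wildtype value, so the groups overlapped, and the change was -1.03 ± 0.35 (SE, adjusted p = 0.0963). Without double-knockout array 2 it was -1.32 (adjusted p = 0.0110), and over the other 16 alternatives it did not pass. Atp5h, subunit d of the peripheral stalk, had 9.66, 9.86, 9.83 and 9.65 in double-knockout arrays, against 10.27 and 9.998 in wildtype, without overlap (-0.38 ± 0.15 SE, adjusted p = 0.140). Atp5g3, which encodes the c ring subunit through which protons pass, gave 0.00 ± 0.13 (SE), with a 95% interval of -0.29 to 0.30, and Atp5md was detected on 0 arrays.

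Several genes had more than 1 tested probe. For 29 further probes of 23 members, the change was lower than that of the gene's brightest probe in 18 (62.1%), against 60.5% of 6532 such probes of all genes, and the sign differed in 8. For Atp5o, a peripheral stalk subunit, the brightest probe gave -0.11 and another -0.59 (unadjusted p = 0.00420, adjusted over all probes 0.0538, a threshold that 7.27% of the 21981 probes passed at 0.05 and 2 of the 109 member probes did). For Atp5j, of the same stalk, the values were -0.12 and -0.57. For Ndufab1, the mitochondrial acyl carrier protein, they were -0.04, 0.02 and -0.51. For Ndufs4, an accessory subunit of complex I, they were 0.01, -0.22, -0.46 and -0.17. These genes were named after their values were seen. Many nuclear genes of the respiratory chain have processed pseudogenes, and where the probes lie is not given in the sources used here.

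**Figure D4:**
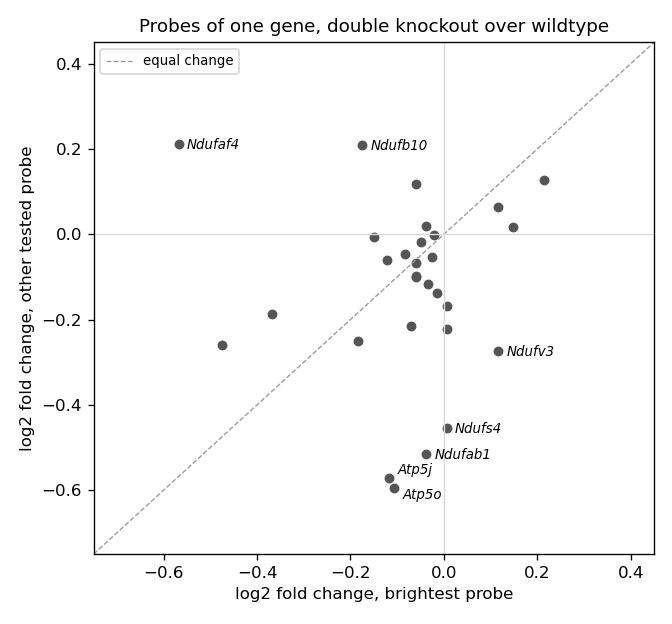
For each of 29 further tested probes of 23 genes, the log2 fold change of the probe (vertical axis) against that of the gene's brightest probe (horizontal axis), double knockout over wildtype. Points on the dashed line changed equally, and Atp5o, Atp5j, Ndufab1 and Ndufs4 each have a probe well below it while Ndufaf4 and Ndufb10 have one above it.

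Members with a dim probe had more negative changes. The 19 members with a mean log2 level under 8 had a median of -0.25, against 0.02 for 6635 genes at that level, and a median standard error of 0.19. The 61 members at 8 or more had a median of -0.05, against 0.03 for 5528 genes. Of the 45 members at 11 or more, 44 had an interval within 1.5-fold and 0 passed by limma (1 at an unadjusted p under 0.05, Sdhc). Of 1131 genes at that level, 69.6% had an interval within 1.5-fold and 3.63% passed by limma (16.4% at an unadjusted p under 0.05).

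Other genes of mitochondrial energy supply were read from lists of pathway genes. Over all genes tested, 9.44% passed by limma and 26.4% had an unadjusted p under 0.05. Of 8 tested electron carriers and subunits outside the name rule, 0 passed by limma (2 at an unadjusted p under 0.05), with a median of 0.02. Etfa, an electron transfer flavoprotein, gave 0.10 and Atpif1, the inhibitor of the ATP synthase, -0.19. Cytochrome c itself, Cycs, gave 0.07. Of 23 tested assembly factors outside the name rule, 1 rose, 0 fell and 22 did not pass (median 0.06). The share that passed, 4.35%, was below that of all genes. Timmdc1, a complex I assembly factor of the inner membrane, had 9.75, 9.02, 9.69 and 9.37 in double-knockout arrays 1, 2, 3 and 5, against 8.20 and 8.57 in wildtype arrays, and rose by 1.07 ± 0.22 (SE, adjusted p = 0.0202). Its call was lost without wildtype array 2 (0.207), wildtype array 3 (0.0678) or double-knockout array 1 (0.0509), and with no filter (0.0523).

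Of 15 tested regulators of mitochondrial biogenesis, 1 fell and 14 did not pass (median 0.15). The share that passed was 6.67%, against 9.44% of all genes. Esrrg, an orphan nuclear receptor, fell by 0.77 ± 0.20 (SE, adjusted p = 0.0446), but was detected on 2 of 4 double-knockout arrays and kept its call under 5 of 16 alternatives. Ppargc1a, a coactivator that raises mitochondrial gene expression, gave 0.85 (adjusted p = 0.0685), Esrra 0.62 (0.0549), Nrf1 0.24 (0.320), Gabpa -0.12 (0.683) and Tfam, which packages mitochondrial DNA, -0.36 (0.232). These regulators other than Esrrg were named after their values were seen.

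Of 14 tested genes of the tricarboxylic acid cycle and pyruvate dehydrogenase, 1 fell and 13 did not pass (median -0.13). The share that passed was 7.14%, against 9.44% of all genes. Suclg2, a subunit of the GTP-forming succinyl-CoA ligase, had 9.82, 9.69, 9.60 and 9.64 in double-knockout arrays, against 10.49 and 10.19 in wildtype arrays, and fell by 0.65 ± 0.15 (SE, adjusted p = 0.0285). It lost its call without either wildtype array (0.264 without 2 and 0.0653 without 3) or without double-knockout array 1 (0.0509) or 3 (0.0568). Of 8 listed isoforms of energy metabolism known mainly from testis, which include the widely expressed hexokinase Hk1, 2 were tested and 1 rose. Ldhc, the testis lactate dehydrogenase, had 8.29, 8.23, 8.74 and 8.86 in double-knockout arrays, against 6.98 and 7.12 in wildtype arrays, and rose by 1.48 ± 0.20 (SE, adjusted p = 0.00343), 2.79-fold. Without wildtype array 2 its adjusted p was 0.0593. Cyct, the testis cytochrome c, and Pgk2, the testis phosphoglycerate kinase, were detected on 0 arrays.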

How the data were processed

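The raw table as deposited holds, for each probe on each array, an intensity, which the values show to be neither background-subtracted nor normalized, and a detection score that rises with the signal and equals 1 minus a detection p, although the file headers call it a p-value. A second deposited table has the authors' quantile-normalized intensity values (array medians 59.5 to 59.6). Signals came from GenomeStudio, per the submitters' processing notes, and its version is not given in the sources used here. All 6 arrays carry the same slide number, per the file headers. R 4.3.3 and limma 3.58.1 were used: nec for the background, with those detection p-values, an offset of 16, quantile normalization and log2. Probes with a detection p under 0.05 on at least 2 arrays were kept (21981 of 45281). Genotypes were compared with lmFit and eBayes over all kept probes with no covariate. Each gene was taken at its brightest kept probe, and p-values were adjusted by Benjamini-Hochberg over 12163 genes at 0.05. The procedure was tested on simulated data. Fold changes are on the log2 scale of background-corrected intensity plus the offset, which understates changes of dim probes. Precision is limited by having 6 arrays.

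Of 45281 probes, 34885 had 1 gene symbol, 18 had several and 10378 had none in the platform annotation used here. The members and lists were chosen with earlier results of these data known. Named genes followed a rule: members past the threshold, in each complex up to 4 subunits with the largest change and the 2 brightest, all tissue isoforms, assembly factors and other genes of the name rule, and in each further list up to 3 genes past the threshold or the 2 brightest. Subunit summaries left out assembly factors, a pseudogene and a supercomplex factor. Alternatives were no background correction, an offset of 50, scaling to the 75th percentile, other filters, the authors' values, replicate blocks, the mean of a gene's probes, leaving out each array and, added after seeing the data, p-values adjusted over all probes and the spread pooled over the genes' own probes. The pericyte and smooth muscle list and the targeted genes were also added after seeing the data.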

Additional observations from a re-analysis of the deposited data

Results flagged for a closer look

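Within the 4 double-knockout arrays, 4 of 43 results checked had an array that stood apart from the other arrays by Dixon's criterion, which chance alone meets in about 1 of 20 groups. Cox4i2 had a log2 level of 6.54 on double-knockout array 2, above the other double-knockout arrays and nearer to wildtype. Double-knockout array 3 stood apart for Atp5b (14.39), for Uqcrc2 (13.07) and for Ndufaf3 (5.83), in each case upward.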

How the results depend on the processing

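Of 710 comparisons of named genes with alternatives, 653 kept their side of the threshold and direction or stayed uncalled, and 22 changed sign while uncalled. The count of lower members was 1, and 2 with no background correction, an offset of 50, 75th percentile scaling, detection on all 6 arrays, the authors' values, the replicate block by description number, or the spread pooled over the genes' own probes (an alternative chosen after seeing the data), the second being Ndufaf4. With no filter it was 0. Leaving out 1 array gave 0 to 2 lower members, 0 to 1 higher members and 189 to 1052 genes called among all genes, where all arrays gave 1148, with 189 after wildtype array 2 was dropped, 371 after wildtype array 3 and 651 after double-knockout array 1. Cox7a1 lost its call without either wildtype array, and Cox4i2 without wildtype array 2 (0.256), double-knockout array 1 (0.0712) or 3 (0.0514), and with no filter (0.0680).

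Leaving out 1 array moved the median of complex I between -0.066 and -0.029, of complex II between -0.61 and -0.12, of complex III between -0.033 and 0.014, of complex IV between -0.10 and 0.025 and of complex V between -0.14 and -0.10. The complex II median was -0.0030 with detection on all 6 arrays, which drops Sdhd, complex III was 0.033 with 75th percentile scaling, and complex V was -0.19 over the mean of a gene's probes. The cause of the other moves was not tested. The deviations of arrays that share a title number had r = -0.105 and -0.0319. With 2 wildtype arrays, the r with one is always the exact negative of the r with the other. These values therefore cannot show whether the numbers pair the arrays. With the replicate block, 1048 genes (title number) or 1227 (description number) were called, and among members this changed only the call of Ndufaf4 (adjusted p = 0.0466). Probes near background limit, among others, Sdhd, Uqcrfs1, Atp5e, Cox8b and Ndufb2.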
